A study of Mus musculus with 18 samples.

Results

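The 8 genes described here encode parts of the machinery that sorts membrane proteins in epithelial cells. Ap1m1, Ap1m2, Ap1b1, Ap1g1 and Ap1s1 encode subunits of the clathrin adaptor AP-1, and Rab10, Rab11a and Rab25 encode small GTPases of recycling and exocytic transport. They were taken by name, as AP-1 subunits and recycling Rabs of epithelia, from the 49843 gene names measured in each library. All 8 had at least 1 TPM in at least 3 libraries and were among the 16717 genes tested, but Ap1m2 passed that filter through the knockout libraries alone. TPM is a gene's share of all transcripts after correction for its length, on a scale common to all libraries.

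All libraries came from IMCD3, an immortalised mouse line of the inner medullary collecting duct with a strain background labelled Tg(SV40E)bri/7, at passage 10 to 15. RNA was sequenced from 6 groups of 3 libraries, 18 in all: Dync2h1 knockout cells under flow and static, Ift140 knockout cells under flow and static, and wild-type cells under flow and static. Flow meant a shear stress of about 0.7 dyne/cm2 for 3 h, and static cells were kept for the same time without it. Dync2h1 encodes the motor that carries cargo from the tip of the primary cilium to its base, and Ift140 encodes a subunit of the particle that this motor moves. The series text calls its lines ciliated or non-ciliated, so the question was how transcript levels depend on cilia and flow. The labels do not say how many clones stand for each knockout or whether replicates were separate cultures, so p-values measure only the spread between these libraries.

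AP-1 gathers cargo into clathrin-coated carriers at the trans-Golgi network and recycling endosomes. It is a tetramer of a gamma, a beta, a mu and a sigma subunit, and the mu subunit reads tyrosine-based sorting signals in the tails of cargo. Most cells use the mu subunit encoded by Ap1m1; epithelia also make a second one, encoded by Ap1m2, which is known for sorting proteins to the basolateral membrane. Rab11a directs traffic through the recycling endosome, Rab25 is its epithelial relative, and Rab10 acts in transport from the Golgi and endosomes to the basolateral membrane.

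Both targeted genes were lower in their own knockout than in wild-type cells on average. Dync2h1 averaged 9.16 TPM under flow and 13.3 TPM in static culture in its own knockout, against 31.5 and 39.8 TPM in wild-type cells. Ift140 averaged 10.5 TPM under flow and 6.72 TPM in static culture in its own knockout, against 16.7 and 18.2 TPM in wild-type cells. Ift140 overlaps the protein-coding gene Tmem204 on the opposite strand. A strand setting is not stated, so reads of that overlap cannot be assigned. One library stood apart: the library labelled Ift140 knockout flow replicate 3, called the deviating library below, held 15.4 TPM of Ift140, against 7.65 and 8.53 TPM in replicates 1 and 2 and 15.1 to 18.5 TPM in the wild-type flow libraries. The level of the targeted gene thus goes against its label. The median correlation of this library with its own group was the lowest of the 18, at 0.961. Its Ap1m2 level was 14.04 TPM, between the 15.9 and 11.7 TPM of replicates 1 and 2, and wild-type flow libraries held 0. The excess was not confined to Ift140: Dync2h1 stood at 42.3 TPM there, against 22.9 and 28.5 TPM in replicates 1 and 2. Among the 8 genes described here, ratios to the mean of those replicates ran from 0.73 for Ap1s1 to 1.84 for Ap1m1. The cause was not tested. Values of the Ift140 knockout flow group include the deviating library, and the main ones are also given without it. Of 20 markers of collecting duct epithelium, 13 were tested. Cdh1, Epcam, Cdh16 and the keratins Krt7, Krt8, Krt18 and Krt19 were expressed in every group, while the principal cell markers Aqp2, Aqp3, Scnn1a, Hsd11b2 and Avpr2 stayed under 1 TPM in every group mean and Emx1 was at 0 throughout. The markers that define the differentiated collecting duct in tissue are therefore near or at 0 in this line. Summed levels of the marker lists for intercalated cells and endothelium did not exceed 1.42 and 1.10 TPM in any library, those for fibroblasts 4.48 TPM, and those for leukocytes 7.44 TPM, of which Cd68 gave the most.

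Among the mu subunits, Ap1m2 was present in both knockout lines and close to absent in wild-type cells. Ap1m2 (GRCm38, chromosome 9, 21294275 to 21312337, minus strand) stood at 70.6, 74.8 and 68.1 TPM in Dync2h1 knockout cells under flow and at 75.9, 81.0 and 71.3 TPM in static Dync2h1 knockout cells. Ift140 knockout cells held 15.9, 11.7 and 14.04 TPM under flow and 15.8, 12.5 and 17.4 TPM in static culture. Wild-type cells were listed at 0 in all 3 libraries under flow, and at 0, 0 and 0.0490 TPM in static culture. The 12 libraries labelled knockout therefore lay above all 6 wild-type libraries, and the 2 knockout lines did not overlap each other. Values are scaled TPM, that is TPM divided by 1 factor per library.

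**Figure D1:**
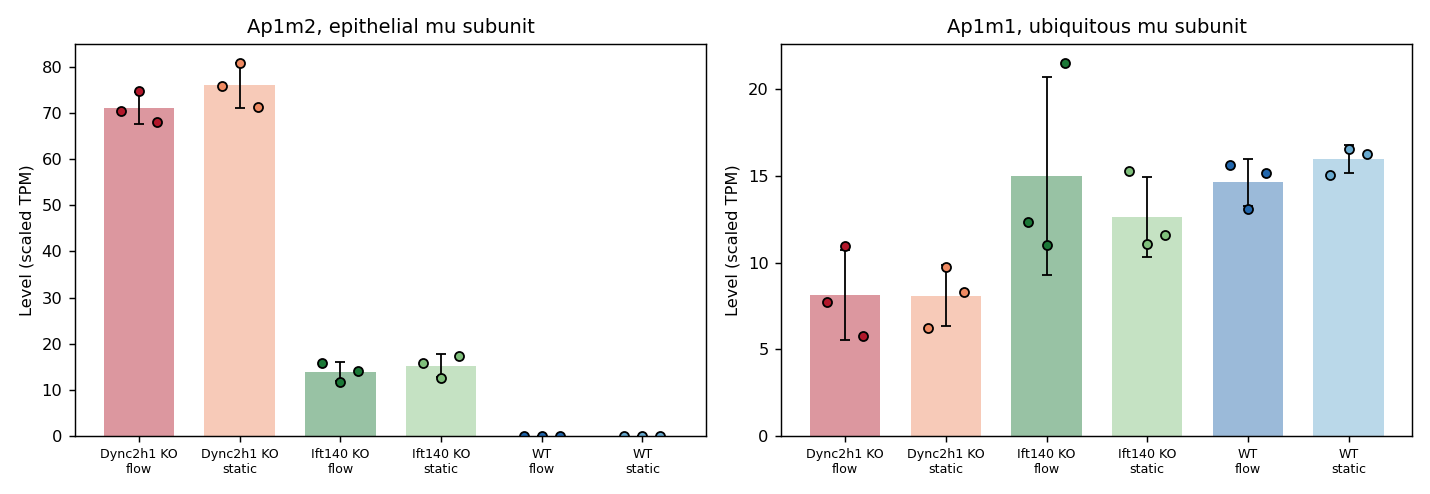
Level of Ap1m2 (left) and Ap1m1 (right) in scaled TPM in each of the 18 libraries. Points are libraries, bars are group means and error bars are the SD of 3 libraries. Ap1m2 is between 68.1 and 81.0 TPM in the Dync2h1 knockout, between 11.7 and 17.4 TPM in the Ift140 knockout and at most 0.0490 TPM in wild type.

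Differences are given as log2(scaled TPM + 1) of the first group minus the second, with the SE and the Benjamini-Hochberg adjusted p of limma over all 16717 genes. A gene was called when that p was under 0.05. In static culture Ap1m2 was higher by 6.24 (SE 0.12, adjusted p = 2.02e-14) in Dync2h1 knockout than in wild-type cells, and by 3.99 (SE 0.12, adjusted p = 4.95e-12) in Ift140 knockout than in wild-type cells. Both were the largest rise, rank 1 of 16717, in their comparison. Under flow the differences were 6.17 (SE 0.12, adjusted p = 1.51e-14) and 3.89 (SE 0.12, adjusted p = 5.82e-12), rank 2 in each comparison, and the Ift140 value was 3.86 (adjusted p = 1.49e-10) without the deviating library. Ap1m2 entered the tested set through the knockout libraries alone, and members were chosen with earlier results of these data known. Its ranks and p-values against wild type are therefore descriptive. Dync2h1 knockout cells also exceeded Ift140 knockout cells in static culture, by 2.26 (SE 0.12, adjusted p = 3.03e-09). The SE of Ap1m2 pools the spread of all 6 groups, and the wild-type groups, at or near 0, add almost none. Over all alternatives, which include a fit of only the groups compared, the adjusted p between the knockouts was at most 9.93e-05. Because the wild-type level is at or near 0, the size of a difference from wild type depends on the pseudocount and no fold is given: over all alternatives it ran from 4.01 to 7.21 for the static Dync2h1 comparison and from 2.004 to 4.92 for the static Ift140 comparison, and Ap1m2 was called in each of them. Across all gene names, Ap1m2 was the 1 gene with at most 0.1 TPM in the 6 wild-type libraries and at least 5 TPM in the 12 knockout libraries. These cuts were set to describe the pattern of Ap1m2, so that it passes them is no test, and the number of genes depends on the cuts. None of 20 housekeeping genes was at 0 in any library, and the lowest of their values was 6.76 TPM.

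The promoter of Ap1m2 is shown because it is the gene that separates the 3 lines, and that of Rab25 because it is the other member with a large difference between lines. Both are the 250 bases before the RefSeq transcription start on GRCm38.p6, written 5′ to 3′ on the strand of the gene, at chr9:21312334-21312583 (minus strand) and chr3:88548280-88548529 (minus strand). Capitals mark matches on either strand to the E-box CAGGTG, which reads CACCTG on the opposite strand and is known to be bound by ZEB and Snail proteins. They also mark matches to the grainyhead-like motif AACNGGTT, which reads AACCNGTT on the opposite strand. The motifs do not overlap each other in these windows.
Ap1m2: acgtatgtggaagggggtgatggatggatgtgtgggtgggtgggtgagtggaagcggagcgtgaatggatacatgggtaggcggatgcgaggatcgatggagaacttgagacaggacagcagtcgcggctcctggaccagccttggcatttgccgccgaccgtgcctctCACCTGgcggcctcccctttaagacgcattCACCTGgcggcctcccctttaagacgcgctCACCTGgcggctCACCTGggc
Rab25: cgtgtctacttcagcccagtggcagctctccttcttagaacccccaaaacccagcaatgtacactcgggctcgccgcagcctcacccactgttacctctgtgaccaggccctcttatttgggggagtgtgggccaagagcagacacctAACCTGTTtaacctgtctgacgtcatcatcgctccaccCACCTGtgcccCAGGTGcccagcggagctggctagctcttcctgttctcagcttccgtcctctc
The Ap1m2 window held 4 E-boxes, whose first bases lay at -81, -51, -21 and -9 from the start, and no match to AACNGGTT. A stretch of 28 bases that contains the E-box occurred at -82 and again at -52. Of 32851 promoter windows of the same length, 0.0426% held at least 4 such E-boxes, 2.06% at least 2 and 17.2% at least 1, and 2.5% repeated a stretch of at least 20 bases. The Rab25 window held 2 E-boxes, at -64 and -53, and 1 match to AACNGGTT at -102, a motif found in 1.79% of windows. Of the 7 members with an entry, Ap1g1 held 1 E-box and Ap1b1, Ap1s1, Rab10 and Rab11a held neither motif. The Ap1m2 window held 17 CpG dinucleotides and the Rab25 window 8, against a median of 6 over all windows. These matches describe the letters of the windows; no binding was measured.

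Ap1m1 (GRCm38, chromosome 8, 72240018 to 72257385, plus strand), the mu subunit of most cells, was lower where Ap1m2 was highest. It stood at 7.70, 10.9 and 5.75 TPM in Dync2h1 knockout cells under flow and at 6.23, 9.74 and 8.30 TPM in static Dync2h1 knockout cells. Ift140 knockout cells held 12.4, 11.03 and 21.5 TPM under flow and 15.3, 11.1 and 11.6 TPM in static culture. Wild-type cells held 15.6, 13.1 and 15.2 TPM under flow and 15.1, 16.6 and 16.3 TPM in static culture. The Dync2h1 knockout libraries thus lay below the wild-type libraries of the same culture without overlap, and the Ift140 knockout libraries overlapped wild type. Ap1m1 fell in Dync2h1 knockout relative to wild-type cells, with a difference of -0.92 (SE 0.23, adjusted p = 0.00743) in static culture and of -0.81 (SE 0.23, adjusted p = 0.0145) under flow. The call under flow was lost without Dync2h1 knockout flow replicate 3, at -0.61 with adjusted p = 0.0772. In Ift140 knockout cells the differences from wild type were -0.33 (SE 0.23, adjusted p = 0.370) in static culture and -0.02 (SE 0.23, adjusted p = 0.967) under flow, and neither passed. Without the deviating library the Ap1m1 difference under flow was -0.30 (adjusted p = 0.400). The static difference between Dync2h1 and Ift140 knockout cells was -0.59 (SE 0.23, adjusted p = 0.0801) and passed only without the deviating library, at adjusted p = 0.0291.

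Both the summed level and the makeup of the mu transcripts differed between the lines. Ap1m2 gave 89.9% ± 2.49 of the summed mu TPM in Dync2h1 knockout cells under flow and 90.4% ± 1.74 in static Dync2h1 knockout cells. Its share in Ift140 knockout cells was 49.1% ± 8.64 under flow and 54.6% ± 4.83 in static culture, and in wild-type cells 0% under flow and 0.1002% ± 0.173 in static culture (SD, n = 3 each). Dync2h1 knockout cells thus held mostly Ap1m2 transcripts and wild-type cells nearly only Ap1m1 transcripts. Ift140 knockout cells held about as much of one as of the other. Protein was not measured. The lowest share among Ift140 knockout libraries, 39.5%, was that of flow replicate 3, and the mean share under flow was 53.9% without it. Summed mu TPM was 79.3 ± 6.03 and 84.2 ± 5.82 in Dync2h1 knockout cells under flow and static, 28.9 ± 6.44 and 27.9 ± 3.86 in Ift140 knockout cells, and 14.6 ± 1.36 and 16.0 ± 0.806 in wild-type cells. Without the deviating library the sum in Ift140 knockout cells under flow averaged 25.5 TPM. No group of libraries of 1 genotype overlapped another in this sum.

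**Figure D2:**
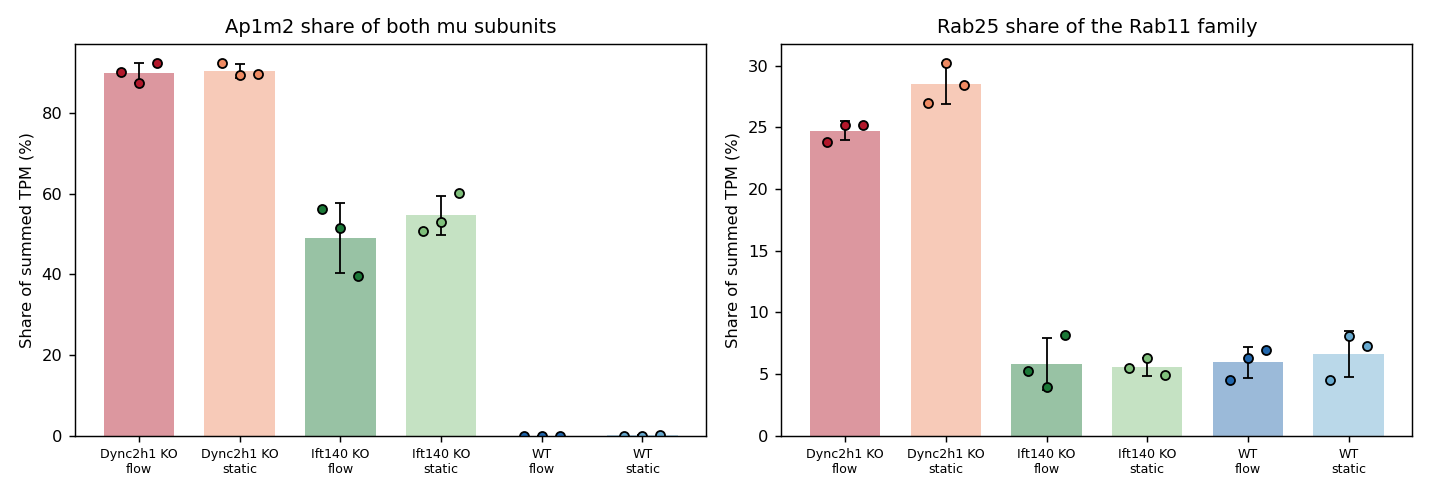
Left, Ap1m2 as a percentage of the summed TPM of Ap1m1 and Ap1m2; right, Rab25 as a percentage of the summed TPM of Rab11a, Rab11b and Rab25. Points are libraries, bars are means and error bars are the SD of 3 libraries. Ap1m2 makes up 89.9% and 90.4% of mu transcripts in the Dync2h1 knockout groups, and Rab25 24.7% and 28.6% of the Rab11 family there.

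The other subunits of AP-1 differed little between the lines. Ap1b1, the beta subunit (GRCm38, chromosome 11, 4986824 to 5042791, plus strand), ranged from 39.8 to 59.5 TPM over the 18 libraries. Ap1g1, the gamma subunit (GRCm38, chromosome 8, 109778554 to 109864204, plus strand), ranged from 33.3 to 74.6 TPM. Ap1s1, a sigma subunit (GRCm38, chromosome 5, 137034993 to 137046135, minus strand), ranged from 46.9 to 72.2 TPM and gave 86.0% to 89.9% of the summed TPM of Ap1s1, Ap1s2 and Ap1s3 in each group. None of the 3 was called in any comparison between lines, where their differences lay between -0.28 and 0.23. Ap1b1 was called in Ift140 knockout against wild-type cells under flow, at 0.32 (adjusted p = 0.0389), when Ift140 knockout flow replicate 2 was left out. The SE of those differences is 0.10 for Ap1b1, 0.16 for Ap1g1 and 0.13 for Ap1s1 on the log2 scale. On the TPM scale, which is per length, summed mu TPM was below the level of each of these 3 subunits in all wild-type and Ift140 knockout groups and above it in both Dync2h1 knockout groups. The highest values of Ap1b1 and Ap1g1 both came from the deviating library, at 59.5 and 74.6 TPM.

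Of the Rabs, Rab25 set the Dync2h1 knockout apart from both other lines. Rab25 (GRCm38, chromosome 3, 88542029 to 88548300, minus strand) stood at 48.4, 52.2 and 49.1 TPM in Dync2h1 knockout cells under flow and at 43.0, 54.8 and 52.3 TPM in static Dync2h1 knockout cells. Ift140 knockout cells held 7.96, 6.29 and 12.6 TPM under flow and 7.29, 8.09 and 6.599 TPM in static culture. Wild-type cells held 7.07, 10.0 and 10.8 TPM under flow and 6.596, 10.1 and 10.7 TPM in static culture. The 6 Dync2h1 knockout libraries lay above the other 12 without overlap, and Ift140 knockout libraries overlapped wild type. Rab25 rose in Dync2h1 knockout relative to wild-type cells by 2.35 (SE 0.21, adjusted p = 7.70e-07) in static culture, a 5.47-fold difference of means and rank 21 of the rises. Under flow the rise was 2.33 (SE 0.21, adjusted p = 8.48e-07), a 5.37-fold difference and rank 34. Against Ift140 knockout cells in static culture it was 2.61 (SE 0.21, adjusted p = 2.95e-07). Rab25, like all members, was chosen with earlier results of these data known, so its ranks and p-values are descriptive. The Ift140 knockout differed from wild type by -0.26 (SE 0.21, adjusted p = 0.433) in static culture and by -0.08 (SE 0.21, adjusted p = 0.838) under flow, and neither passed. Without the deviating library the Rab25 difference under flow was -0.33 (adjusted p = 0.292).

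Rab11a and Rab10 were the most abundant members and were called in no comparison between lines. Rab11a (GRCm38, chromosome 9, 64715299 to 64737758, minus strand) ranged from 103.3 to 144.6 TPM and Rab10 (GRCm38, chromosome 12, 3247428 to 3309969, minus strand) from 93.6 to 132.7 TPM. Their differences between lines lay between -0.12 and 0.15. Rab25 made up 24.7% ± 0.768 of the summed TPM of Rab11a, Rab11b and Rab25 in Dync2h1 knockout cells under flow and 28.6% ± 1.66 in static Dync2h1 knockout cells. The shares were 5.80% ± 2.13 and 5.57% ± 0.722 in Ift140 knockout cells under flow and static, and 5.94% ± 1.26 and 6.64% ± 1.88 in wild-type cells (SD, n = 3 each). Rab11a shared no 50-base stretch with Rab25 or Rab11b, and Ap1m1 shared none with Ap1m2. Rab11b shared 9.47% of its 50-base stretches with other genes, mostly Rab11b-ps2, and Ap1s3 shared 13.3%, so the family shares that contain them are less certain. Rab10 and Ap1g1 overlap antisense genes, Rab10os and Gm17344, and a strand setting is not stated, so reads of the overlap cannot be assigned.

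**Figure D3:**
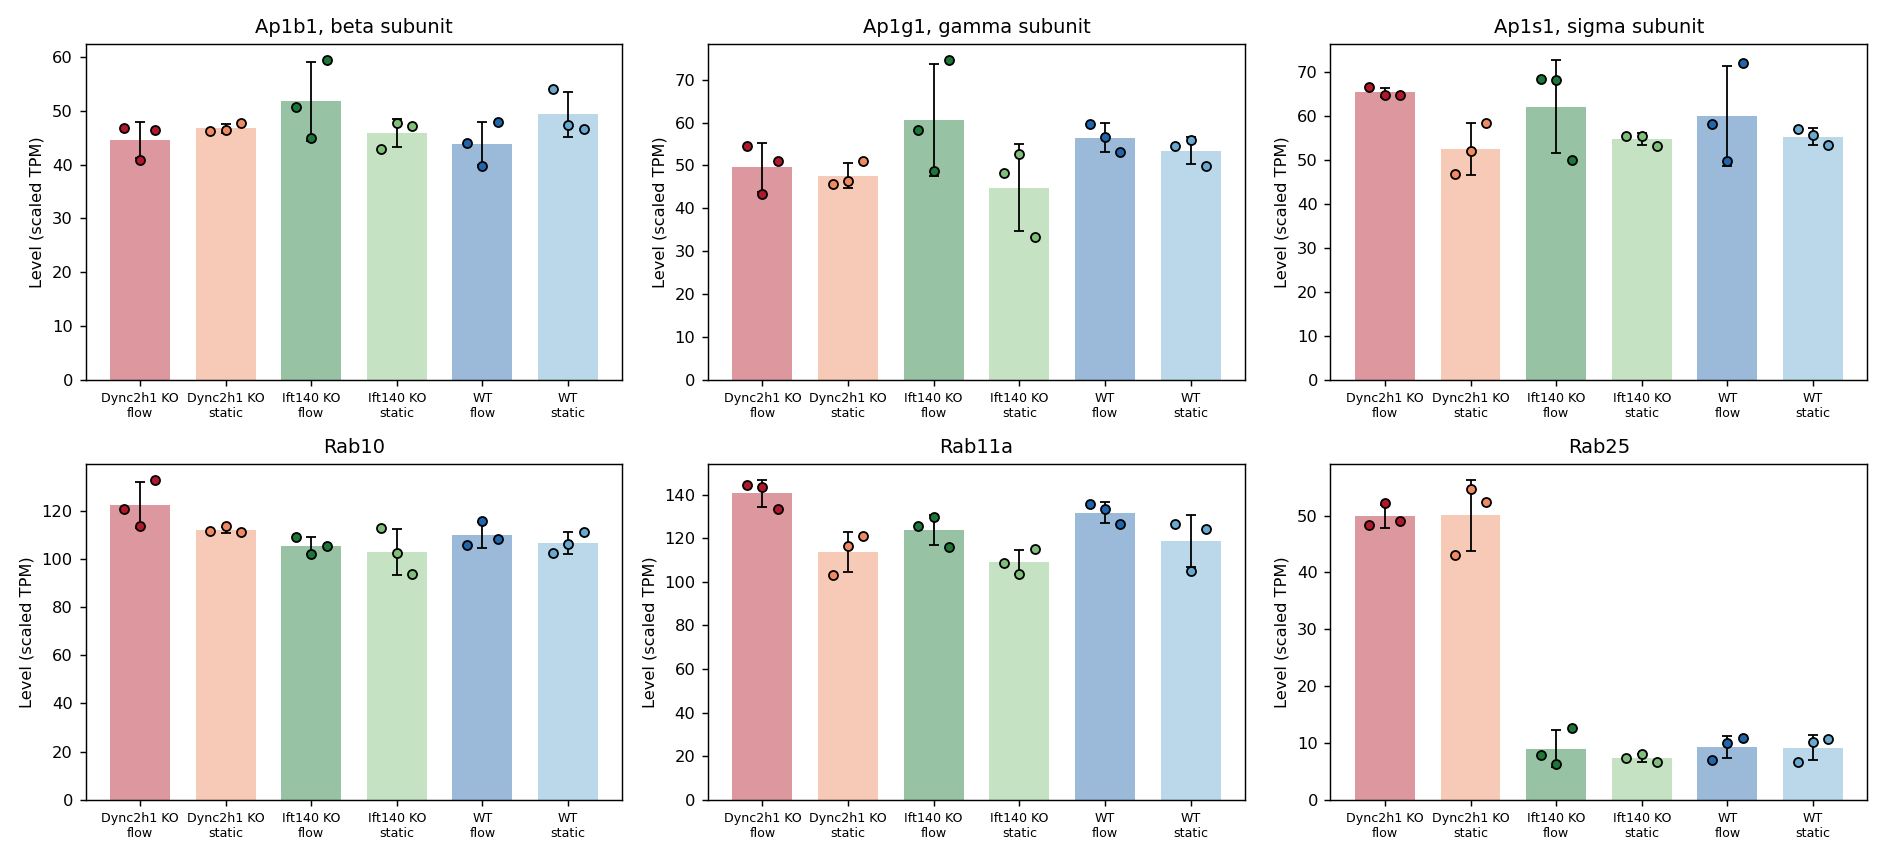
Level in scaled TPM of the beta, gamma and sigma subunits Ap1b1, Ap1g1 and Ap1s1 and of Rab10, Rab11a and Rab25 in each library. Points are libraries, bars are group means and error bars are the SD of 3 libraries. Rab25 is between 43.0 and 54.8 TPM in the Dync2h1 knockout and between 6.29 and 12.6 TPM in all other libraries; the other 5 genes overlap between knockout and wild-type libraries of the same culture.

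Counted over the members, 2 were higher and 1 lower in Dync2h1 knockout than in wild-type cells in static culture, where 27.6% of all genes were called, 13.5% higher and 14.1% lower. Under flow 2 were again higher and 1 lower, where 30.1% of all genes were called, 16.1% higher and 14% lower. Ap1m2 was the 1 member higher in Ift140 knockout than in wild-type cells in static culture, where 18% of all genes were called, 8.97% higher and 9.07% lower. It was also the 1 member higher under flow, where 15.3% were called, 7.73% higher and 7.53% lower. Between Dync2h1 and Ift140 knockout cells in static culture 2 members were higher and none lower, with 23% of all genes called, 10.8% higher and 12.2% lower. The share of members called was thus near that of all genes, and what stands out is the size of the Ap1m2 and Rab25 differences. The median difference over the 8 members was -0.07 for Dync2h1 and -0.11 for Ift140 knockout against wild type in static culture, beside -0.01 and 0.00 over all genes tested. The comparisons with wild type in the same culture share their wild-type libraries.

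**Figure D4:**
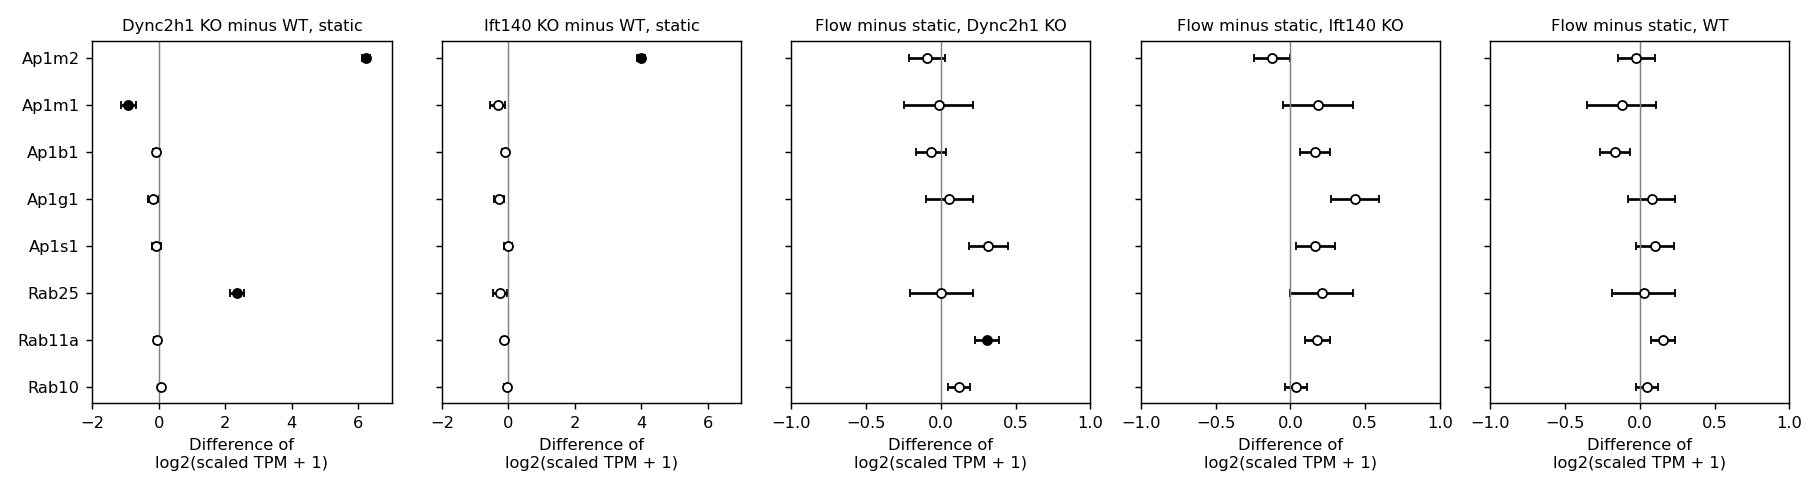
Difference of log2(scaled TPM + 1) for each member, with bars of 1 SE, in 5 comparisons: each knockout minus wild type in static culture, and flow minus static in each line. Filled points were called at adjusted p under 0.05. Ap1m2 lies at 6.24 and 3.99 in the knockout comparisons, while all flow differences lie between -0.17 and 0.43; the axis of each flow panel spans a smaller range.

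Flow for 3 h gave small differences among the members, and 1 of them passed the test in 1 line. That member was Rab11a in Dync2h1 knockout cells, where 19% of all genes were called, 10.8% higher and 8.15% lower. In the same line 2 members had an unadjusted p under 0.05. In Ift140 knockout cells 0 members were called by limma, with 17.5% of all genes called, 9.21% higher and 8.28% lower, and 2 members had an unadjusted p under 0.05. In wild-type cells 0 members were called by limma, with 20.5% of all genes called, 10.2% higher and 10.3% lower, and 0 had an unadjusted p under 0.05. The shares of all genes are for the adjusted p. None is given for the unadjusted cut, so the unadjusted counts have no background to be read against. Rab11a stood at 144.6, 143.5 and 133.6 TPM under flow and at 103.3, 116.2 and 121.2 TPM in static culture in Dync2h1 knockout cells, which do not overlap. The rise was 0.31 (SE 0.08, adjusted p = 0.0146), a 1.24-fold difference of means. It was lost with TPM as deposited (0.19, adjusted p = 0.236) and without any 1 of Dync2h1 knockout static replicate 1 (adjusted p = 0.1096), flow replicate 1 (adjusted p = 0.0722) or flow replicate 2 (adjusted p = 0.0508). In Ift140 knockout cells Rab11a held 125.7, 129.5 and 115.9 TPM under flow and 108.5, 103.7 and 114.9 TPM in static culture, a difference of 0.18 (SE 0.08, adjusted p = 0.148), or 0.23 (adjusted p = 0.0894) without flow replicate 3. In wild-type cells it held 135.5, 133.2 and 126.5 TPM under flow and 126.6, 105.0 and 124.4 TPM in static culture, a difference of 0.15 (SE 0.08, adjusted p = 0.210).

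Ap1s1 in Dync2h1 knockout cells held 66.6, 64.8 and 64.9 TPM under flow and 46.9, 52.2 and 58.6 TPM in static culture, which do not overlap, but its difference of 0.32 (SE 0.13) had adjusted p = 0.101. It passed in a fit of only the groups compared, at adjusted p = 0.0344, and without the deviating library, whose spread enters the fit, at adjusted p = 0.0392. Rab10 in Dync2h1 knockout and Rab11a in Ift140 knockout cells were also higher under flow without overlap, and neither was called. The share of all genes without overlap is not given, so lack of overlap is descriptive. Ap1g1 in Ift140 knockout cells held 58.3, 48.7 and 74.6 TPM under flow and 48.3, 52.7 and 33.3 TPM in static culture, which overlap, and its difference of 0.43 (SE 0.16) had adjusted p = 0.0723. It passed without static replicate 2 (adjusted p = 0.0363) and without flow replicate 2 (adjusted p = 0.0230), and without flow replicate 3 the difference was 0.27 (adjusted p = 0.261). Ap1m2 and Rab25 did not pass for flow in any line: their differences were -0.09 and 0.00 in Dync2h1 knockout cells, -0.12 and 0.21 in Ift140 knockout cells and -0.02 and 0.03 in wild-type cells. Ap1m2 was at or near 0 in static wild-type cells, so a fall under flow could not have been seen there. The difference of the flow response from that of wild type was called by limma for 0 members in Dync2h1 knockout cells, where 0.485% of all genes were called, 0.179% higher and 0.305% lower, and 0 members had an unadjusted p under 0.05. For Ift140 knockout cells it was called for 0 members, where 0.227% of all genes were called, 0.0778% higher and 0.15% lower, and Ap1b1 was the 1 member with an unadjusted p under 0.05. The largest of these differences of a member was 0.35 (SE 0.22, adjusted p = 0.763) for Ap1g1 in Ift140 knockout cells. The unadjusted counts for the flow response also have no share of all genes at that cut beside them.

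Neighbours in the genome were called in both directions. Of all genes, 27.6% were called in Dync2h1 and 18% in Ift140 knockout against wild-type cells in static culture, and 30.1% and 15.3% under flow. Of 12 tested protein-coding genes within 200 kb of Ap1m2, 0 were higher and 1 lower in Dync2h1 knockout than in wild-type cells in static culture, with differences between -0.63 and 0.31. Against wild type, Ift140 knockout cells had 0 of them higher and 1 lower, with differences between -0.48 and 0.70. Of 13 such genes near Rab25, 1 was higher and 3 lower in static Dync2h1 knockout cells, with differences between -0.78 and 0.63. In Ift140 knockout cells 1 of these was higher and 3 lower in static culture, and 0 higher and 2 lower under flow. Under flow, near Ap1m2, 2 were higher and 2 lower in Dync2h1 knockout and 1 higher and 0 lower in Ift140 knockout than in wild-type cells, and near Rab25 3 were higher and 0 lower in Dync2h1 knockout cells, with differences between -0.27 and 0.65. Ap1m2 lies on the same chromosome as the targeted Dync2h1, 14.1 Mb away, and Rab11a 57.5 Mb away.

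Epithelial and tubule markers also differed between the lines, not all in step with Ap1m2 or Rab25, and their part in those differences was not tested. Of the 13 tested markers of collecting duct epithelium, 7 were higher and 1 lower in static Dync2h1 knockout than in wild-type cells, beside 13.5% and 14.1% of all genes. In static Ift140 knockout cells 4 were higher and 2 lower than in wild-type cells, beside 8.97% and 9.07% of all genes. The summed level of the 20 listed markers was 4113 to 4238 TPM in static Dync2h1 knockout, 3999 to 4341 TPM in static Ift140 knockout and 3188 to 3310 TPM in static wild-type libraries, with Krt8 and Krt18 the most abundant of them. Epcam, an epithelial adhesion molecule, averaged 378 ± 17.3 TPM in static Dync2h1 knockout, 250.4 ± 11.8 TPM in static Ift140 knockout and 193 ± 22.6 TPM in static wild-type cells. Cdh1, which encodes E-cadherin, averaged 66.4 ± 13.0, 38.2 ± 2.92 and 32.6 ± 5.20 TPM in the same 3 groups, and Esrp1, an epithelial splicing regulator, 52.8 ± 3.60, 20.7 ± 2.503 and 29.2 ± 1.14 TPM. Markers were not all higher in both knockouts: the mean of Esrp1 was below wild type in static Ift140 knockout cells, and so was that of Cdh16. Cdh16, a kidney cadherin, averaged 426 ± 24.7 TPM in static Dync2h1 knockout, 257 ± 15.2 TPM in static Ift140 knockout and 381 ± 1.66 TPM in static wild-type cells. It fell in the Ift140 knockout, with a difference of -0.56 (adjusted p = 2.20e-05). Tfcp2l1, a collecting duct transcription factor, averaged 4.23 ± 0.953, 7.36 ± 2.43 and 9.16 ± 1.12 TPM in the same 3 groups and fell in the Dync2h1 knockout, with a difference of -0.97 (adjusted p = 0.0304). The 6 markers of the proximal tubule summed to 11.3 to 13.3 TPM in static Dync2h1 knockout, 83.8 to 91.7 TPM in static Ift140 knockout and 435 to 438 TPM in static wild-type libraries. Most of that sum came from 2 endocytic receptors. Cubn averaged 3.98 ± 0.333, 3.28 ± 0.904 and 410 ± 2.70 TPM in static Dync2h1 knockout, Ift140 knockout and wild-type cells, and Lrp2 4.48 ± 0.365, 80.3 ± 2.86 and 21.8 ± 1.95 TPM, while Slc34a1, a phosphate transporter that defines the segment, was at 0 in all 18 libraries. In bulk samples, fewer cells of a type and less RNA per cell cannot be told apart.

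Genes with the pattern most like that of Ap1m2 were sought over the 6 group means of log2(scaled TPM + 1), each gene centred on its own mean. The search covered 9749 genes with a mean of at least 5 TPM over all libraries. Names of predicted or clone-based type, such as those with Gm or Rik, were left out. Gm12671 was left out in this way. It held at most 0.1 TPM in the 6 wild-type libraries and at least 5 TPM in the 6 Dync2h1 knockout libraries. The nearest were Ripk3, a kinase of necroptosis, with a root mean square difference of 1.29, Rps12l1 with 1.47, the protease gene Prss22 with 1.57, the cyclin gene Ccnd1 with 1.59 and Apln, a peptide hormone gene, with 1.60. Even the nearest differed by more than 1 on the log2 scale: Ripk3 averaged 14.9 and 12.4 TPM in Dync2h1 knockout cells under flow and static, 1.79 and 1.32 TPM in Ift140 knockout cells, and 0.148 and 0.209 TPM in wild-type cells. All 50-base stretches of Rps12l1 occur in other genes, mostly Rps12, so its level is uncertain. Nearest to Rab25 were Sap18 with 0.17, Apln with 0.33, Dok7, an adaptor of the muscle kinase MuSK, with 0.39, and S100a14 and Smim22 with 0.40 each. Sap18 averaged 31.04 and 37.9 TPM in Dync2h1 knockout cells under flow and static, 5.16 and 5.94 TPM in Ift140 knockout cells, and 5.08 and 6.02 TPM in wild-type cells, but 14.6% of its 50-base stretches occur elsewhere, mostly in Sap18b. The 6 group means rest on 18 libraries and carry no test.

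Of 24 tested partners (the other sigma subunits, Arf GTPases and their exchange factors, GGA and accessory proteins, and lipid kinases), 0 were higher and 2 lower in Dync2h1 knockout than in wild-type cells in static culture, and 0 and 4 under flow, where 27.6% and 30.1% of all genes were called. In Ift140 knockout cells 0 were higher and 2 lower in static culture, and 3 and 2 under flow, where 18% and 15.3% of all genes were called; the same shares are the background of the list counts that follow. Arf5, a GTPase of the family that recruits AP-1 to membranes, averaged 83.2 ± 9.95 TPM in static Dync2h1 knockout and 119 ± 8.79 TPM in static wild-type cells, a difference of -0.51 (SE 0.10, adjusted p = 0.00088). Heatr5b, which encodes a partner of AP-1, averaged 37.0 ± 8.22 TPM in Ift140 knockout and 22.6 ± 1.92 TPM in wild-type cells under flow, a difference of 0.67 (SE 0.14, adjusted p = 0.00342), or 0.50 (adjusted p = 0.0107) without flow replicate 3. Relative to static culture, 4 partners rose and 1 fell under flow in Dync2h1 knockout cells, 5 and 0 in Ift140 knockout cells and 6 and 0 in wild-type cells, where 19%, 17.5% and 20.5% of all genes were called. The one that fell was Synrg, which encodes an AP-1 binding protein, at 15.4 ± 0.638 TPM under flow against 28.2 ± 2.16 TPM in static culture, with a difference of -0.83 (SE 0.15, adjusted p = 0.00131). Arf4, another Arf GTPase, rose in Ift140 knockout cells, at 50.3 ± 11.4 TPM against 30.5 ± 5.58 TPM, by 0.69 (SE 0.16, adjusted p = 0.00632), or by 0.54 (adjusted p = 0.0280) without flow replicate 3.

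Of 14 tested cargo receptors and trans-Golgi enzymes, 2 were higher and 5 lower in Dync2h1 knockout than in wild-type cells in static culture, and 0 were higher and 9 lower under flow. Of all genes, 13.5% were higher and 14.1% lower in static culture, and 16.1% higher and 14% lower under flow. The list had median differences of -0.34 and -0.42 beside -0.01 and 0.01 over all genes. The Ift140 knockout had 3 higher and 1 lower in static culture, and 1 and 0 under flow. Sort1, a lysosomal sorting receptor, averaged 12.2 ± 1.73 TPM in static Dync2h1 knockout and 32.4 ± 1.58 TPM in static wild-type cells, a difference of -1.35 (SE 0.13, adjusted p = 1.58e-06). Igf2r, the large mannose 6-phosphate receptor, rose in Ift140 knockout cells, at 248 ± 16.5 TPM against 166 ± 1.67 TPM in wild-type cells in static culture, a difference of 0.58 (SE 0.10, adjusted p = 0.000977). Tfrc, the transferrin receptor and a recycling cargo, rose in wild-type cells under flow, at 243 ± 45.5 TPM against 103 ± 15.3 TPM in static culture, by 1.22 (SE 0.12, adjusted p = 2.71e-06). Its flow response was smaller in Ift140 knockout than in wild-type cells by -0.94 (SE 0.17, adjusted p = 0.0245), or by -0.93 (adjusted p = 0.0395) without flow replicate 3. It was the 1 gene of these pathway lists whose response was called with all libraries. Without that replicate the response of Rab11fip5 was called too, at -0.84 (adjusted p = 0.000532) beside -0.64 (adjusted p = 0.200) with all libraries. The static Tfrc level was already higher in both knockouts, at 192 ± 10.96 TPM in Dync2h1 and 189 ± 5.92 TPM in Ift140 knockout cells.

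Among 22 tested Rab11 effectors, motors and recycling endosome genes, 2 were higher and 6 lower in Dync2h1 knockout than in wild-type cells in static culture and 2 higher and 7 lower under flow, where 27.6% and 30.1% of all genes were called. The counts for Ift140 knockout cells were 2 higher and 2 lower, and 3 higher and 1 lower. Rab11fip5, which encodes a Rab11 effector, rose in static Ift140 knockout cells, at 197 ± 8.38 TPM against 68.1 ± 2.28 TPM in wild-type cells, by 1.52 (SE 0.12, adjusted p = 3.91e-07). It also rose under flow in wild-type cells, at 132 ± 5.31 TPM against 68.1 ± 2.28 TPM in static culture, by 0.94 (SE 0.12, adjusted p = 3.48e-05). Myo5c, an epithelial myosin motor, averaged 17.1 ± 0.389 TPM in static Dync2h1 knockout and 30.3 ± 2.64 TPM in static wild-type cells, a difference of -0.79 (SE 0.13, adjusted p = 0.000282). Rab35, a Rab of endocytic recycling, averaged 42.8 ± 1.61 TPM in static Dync2h1 knockout and 59.4 ± 3.05 TPM in static wild-type cells, a difference of -0.46 (SE 0.07, adjusted p = 0.000136).

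Of 24 tested other epithelial Rabs and Rab10 regulators, 4 were higher and 3 lower in Dync2h1 knockout than in wild-type cells in static culture, and 3 and 3 in Ift140 knockout cells, where 27.6% and 18% of all genes were called. Tbc1d1 and Tbc1d4 encode GTPase-activating proteins that act on Rab10. Tbc1d1 rose under flow in wild-type cells, at 147 ± 4.50 TPM against 92.3 ± 7.24 TPM in static culture, by 0.67 (SE 0.08, adjusted p = 1.79e-05), and was higher in static Dync2h1 knockout cells, at 158 ± 8.22 TPM, by 0.77 (SE 0.08, adjusted p = 2.41e-06). Tbc1d4 moved the other way under flow in wild-type cells, at 37.8 ± 2.77 TPM against 65.3 ± 9.65 TPM in static culture, with a difference of -0.77 (SE 0.10, adjusted p = 8.18e-05). In Dync2h1 knockout cells Tbc1d4 also fell under flow, with a difference of -0.73 (SE 0.10, adjusted p = 0.000134). Rab10 itself differed by 0.04 (SE 0.07, adjusted p = 0.743) under flow in wild-type cells.

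Of 20 tested genes of the exocyst and of membrane fusion, 2 were higher and 5 lower in Dync2h1 knockout than in wild-type cells in static culture, and 1 and 4 in Ift140 knockout cells, where 27.6% and 18% of all genes were called. Stx2, a plasma membrane syntaxin, averaged 17.8 ± 3.84 TPM in static Dync2h1 knockout and 35.4 ± 2.81 TPM in static wild-type cells, a difference of -0.97 (SE 0.14, adjusted p = 9.42e-05). Exoc5, an exocyst subunit, rose under flow in all 3 lines, by 0.44 (adjusted p = 0.00208) in Dync2h1 knockout, 0.45 (adjusted p = 0.00219) in Ift140 knockout and 0.42 (adjusted p = 0.00253) in wild-type cells, with an SE of 0.09 each. Of 13 tested polarity genes, 2 were higher and 0 lower in Dync2h1 knockout than in wild-type cells in static culture and 5 and 0 under flow, and in Ift140 knockout cells 3 and 0 in both cultures, against the same shares of all genes (27.6%, 30.1%, 18% and 15.3%). Crb3, of the apical Crumbs complex, averaged 52.7 ± 4.72 TPM in Dync2h1 knockout and 30.7 ± 3.09 TPM in wild-type cells under flow, a difference of 0.76 (SE 0.09, adjusted p = 1.24e-05). Scrib, of the basolateral Scribble complex, averaged 199 ± 9.55 TPM in static Ift140 knockout and 152 ± 9.80 TPM in static wild-type cells, a difference of 0.39 (SE 0.06, adjusted p = 0.000506).

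Of 8 tested genes of clathrin and its uncoating, 2 were higher and 2 lower in Dync2h1 knockout than in wild-type cells in static culture, and 1 and 1 in Ift140 knockout cells, where 27.6% and 18% of all genes were called. Hip1r, which links clathrin coats to actin, averaged 60.6 ± 7.87 TPM in static Ift140 knockout and 104 ± 7.54 TPM in static wild-type cells, a difference of -0.78 (SE 0.13, adjusted p = 0.000643). Of 19 tested subunits of the other adaptor complexes, 2 were higher and 3 lower in static Dync2h1 knockout cells, and 0 higher and 1 lower in static Ift140 knockout cells. Ap5s1, a subunit of AP-5, fell under flow in wild-type cells, at 6.81 ± 1.16 TPM against 12.7 ± 1.92 TPM in static culture, with a difference of -0.81 (SE 0.18, adjusted p = 0.00413).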

How the data were processed

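Total RNA was sequenced from 18 libraries in 6 groups of 3. Per the submitters' processing notes, FastQC 0.11.5, Bowtie2 2.1.0 and RSEM 1.2.31 were used, with builds mm10 and GRCm38.p5 named; settings and strand were not given in the sources used here. The values the authors deposited are TPM per gene name, read from the values: gene rows sum to the same total in every library, and a row holding that total was left out. How deeply each library was sequenced cannot be read from TPM, so counting error is unknown.

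Libraries were scaled with an unweighted trimmed mean of log ratios (30% of ratios and 5% of abundances trimmed; factors 0.890 to 1.13). The 16717 genes that reached 1 TPM in 3 or more libraries were fitted with limma 3.58.1 (R 4.3.3) on log2(scaled TPM + 1), with 6 group means, 12 residual degrees of freedom and a mean-variance trend, and called at a Benjamini-Hochberg adjusted p under 0.05. The smallest p an exact permutation of 3 against 3 can give is 0.1. The method was tested on simulated data. Every member is named; from each list and comparison up to 2 called genes with a mean of at least 5 TPM were eligible, by smallest p. Members and lists were chosen with earlier results of these data known. Coordinates are from GENCODE on GRCm38 and promoters from RefSeq. Alternatives changed scaling, filter, pseudocount, trend, replicate block, the groups in the fit and single libraries; the fits of comparisons outside the Ift140 knockout flow group without its replicate 3, and those of the list genes without it, were chosen after seeing the data.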

Additional observations from a re-analysis of the deposited data

How the results depend on the processing

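No member changed direction while called, and Ap1m2 stayed called in each knockout comparison under all alternatives run. The calls of Ap1m2 against wild type remain descriptive, because it entered the tested set through the knockout libraries alone. For flow in Dync2h1 knockout cells, 0 members were called with TPM as deposited and 2 with only the groups compared or without the deviating library, beside 1. Over all genes, the flow response of Ift140 knockout minus wild type gave 19 calls with TPM as deposited, 22 with a replicate block and 6 with only the groups compared, beside 38, and that of Dync2h1 knockout minus wild type 151 with only the groups compared and 160 without the deviating library, beside 81. With only the groups compared, flow against static in Ift140 knockout cells gave 678 calls, beside 2923, and Ift140 knockout against wild type under flow 692, beside 2550. The causes were not tested.

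Leaving out 1 library at a time gave 0 to 2 called members for flow in Dync2h1 knockout cells, 0 to 1 for flow in Ift140 knockout cells, 1 to 2 for Ift140 knockout against wild type under flow, and all-gene counts of 12 to 56 and 42 to 160 for the responses of Ift140 and Dync2h1 knockout minus wild type. In the flow response of Dync2h1 knockout minus wild type, the count was lowest without Dync2h1 knockout static replicate 3. Libraries were not paired by replicate number in the main fit. After removal of group means, 3 of the same-number pairs, 15 for each number, correlated above 0.1. Pairs of different numbers reached 0.181, and 5 of the 18 libraries correlated best with their own number. The labels do not say whether equal numbers mark libraries handled together, and these correlations cannot settle it. The block changed no call of a member. Depth is not known from TPM. Without the deviating library, Ift140 knockout against wild type under flow gave 2369 called genes, beside 2550.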
